A study of Mus musculus with 2 samples.

Results

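The enzymes of the citric acid cycle were examined in a chromatin immunoprecipitation and sequencing (ChIP-seq) data set of the transcription factor NRF1 in mouse skeletal muscle. The list held 9 genes chosen by name, Cs, Idh3a, Idh3b, Idh3g, Ogdh, Suclg1, Sucla2, Fh1 and Mdh2, out of 21000 protein-coding genes of the RefSeq annotation. The study asked how the glucocorticoid receptor, the demethylase LSD1 and NRF1 share target genes in muscle, and NRF1 was profiled to find the sites it occupies there. The series has 2 libraries, both labelled as skeletal muscle of wild-type mice immunoprecipitated with an NRF1 antibody, with no treatment, time or second genotype. The mice were males of the C57BL/6J background, aged 9 weeks as far as the legends give it, and the labels do not say how many animals gave the tissue. A single list of 3226 peaks was analysed, in which a peak is a stretch of genome with more sequenced fragments than the control and its summit is the highest point. A q-value limit of 0.01 was met by 3219 of them. The study counts a different total of NRF1 sites. Its reporting summary names a narrow-peak list for NRF1 among the deposited files. It does not say whether the total was counted from that list. The peaks are named after the library of replicate 1 alone, so the values have no replicate error and none of them was tested. Whether the library of replicate 2 is a second NRF1 library, as labelled, or the control could not be settled. Read depth is unknown from a list of peaks, and the labelled tissue could not be checked against marker genes because binding sites hold no expression values.

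The citric acid cycle burns the acetyl group of acetyl-CoA to carbon dioxide in the mitochondrial matrix and passes the electrons to the respiratory chain, and working muscle leans on it heavily for ATP. Its enzymes are encoded in the nucleus and imported into mitochondria. NRF1, nuclear respiratory factor 1, binds a GC-rich palindrome close to the start of many genes with mitochondrial functions, among them subunits of the respiratory chain.

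A gene was counted as having a promoter peak when a summit lay between 1000 bp before and 100 bp after any of its annotated starts. By this rule 3 of the 9 enzymes had a promoter peak. They were Idh3a and Idh3g, which encode the catalytic alpha and the regulatory gamma subunit of NAD-dependent isocitrate dehydrogenase, and Sucla2, which encodes the ADP-specific beta subunit of succinyl-CoA synthetase. The other 6 had none, namely Cs, Idh3b, Ogdh, Suclg1, Fh1 and Mdh2. Of all protein-coding genes, 2808 of 21000 or 13.4% had a promoter peak by the same rule. The share among the enzymes was 33.3%, with a 95% Wilson interval of 12.1% to 64.6% that takes in the background and covers counting error only.

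The sequences around the 3 summits are given because they hold the letters nearest the points of highest NRF1 signal at these genes. They were read from the RefSeq GRCm38 (mm10) genome on the strand of the gene, 5′ to 3′, within 60 bp of the summit and up to the last base before a transcript begins. Capitals mark the closest match to the NRF1 palindrome GCGCATGCGC, which reads the same on both strands.
Idh3a, chr9:54586409-54586510, plus strand: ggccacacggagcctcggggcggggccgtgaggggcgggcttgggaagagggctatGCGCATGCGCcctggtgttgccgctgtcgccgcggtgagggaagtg
Idh3g, chrX:73786899-73787019, minus strand: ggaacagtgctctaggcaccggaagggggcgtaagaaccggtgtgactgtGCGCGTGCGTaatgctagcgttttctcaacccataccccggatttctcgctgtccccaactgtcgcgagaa
Sucla2, chr14:73552696-73552785, plus strand: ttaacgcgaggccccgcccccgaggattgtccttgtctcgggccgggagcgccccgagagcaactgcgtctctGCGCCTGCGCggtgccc
Idh3a carried the full palindrome. Sucla2 carried GCGCCTGCGC, with 1 mismatch, and Idh3g had no closer match than GCGCGTGCGT, with 2 mismatches.

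In NAD-dependent isocitrate dehydrogenase, which turns isocitrate into 2-oxoglutarate and is a regulated step of the cycle, NRF1 peaks lay at the genes of 2 of the 3 subunits. The Idh3a peak, at chr9:54586352-54586669, was 318 bp wide with its summit 42 bp before the start. Its fold enrichment, which says how many times the fragment signal exceeded the control there, was 9.55, with a −log10 q of 23.3. The palindrome was centred 0.5 bp from the summit and 41.5 bp before the start of Idh3a, so summit and motif coincided. The Idh3g peak, at chrX:73786856-73787062, was narrower at 207 bp, with a summit 62 bp before the start, a fold enrichment of 11.1 and a −log10 q of 20.4. The 2-mismatch match lay 5.5 bp upstream of the summit in the direction of Idh3g. This peak also lies in the promoter of Ssr4, a subunit of the translocon-associated protein complex of the endoplasmic reticulum, which is transcribed the other way from a start 126 bp away. A single summit between these starts cannot be given to one gene rather than the other. Idh3b, which encodes the beta subunit, had no promoter peak. Its nearest summit lay 10184 bp downstream of its start, outside the gene, in the promoter of Nop56, which encodes a core protein of the box C/D small nucleolar ribonucleoproteins, with a fold enrichment of 9.39.

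In succinyl-CoA synthetase, which makes ATP or GTP directly while it releases succinate, the beta subunit gene Sucla2 had a peak and the gene of the shared alpha subunit, Suclg1, did not. The Sucla2 peak, at chr14:73552497-73552989, was the widest of the 3 at 493 bp. Its summit lay 30 bp before the start, with a fold enrichment of 11.4 and a −log10 q of 26.3. The 1-mismatch motif was centred 17.5 bp downstream of the summit and 12.5 bp before the start of Sucla2. The nearest summit to Suclg1 was 650084 bp upstream, in the promoters of Elmod3 and Retsat, with a fold enrichment of 5.54 and a −log10 q of 6.74. Suclg2, the gene of the GTP-specific beta subunit, lay further still from a summit, at 1408936 bp.

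**Figure D1:**
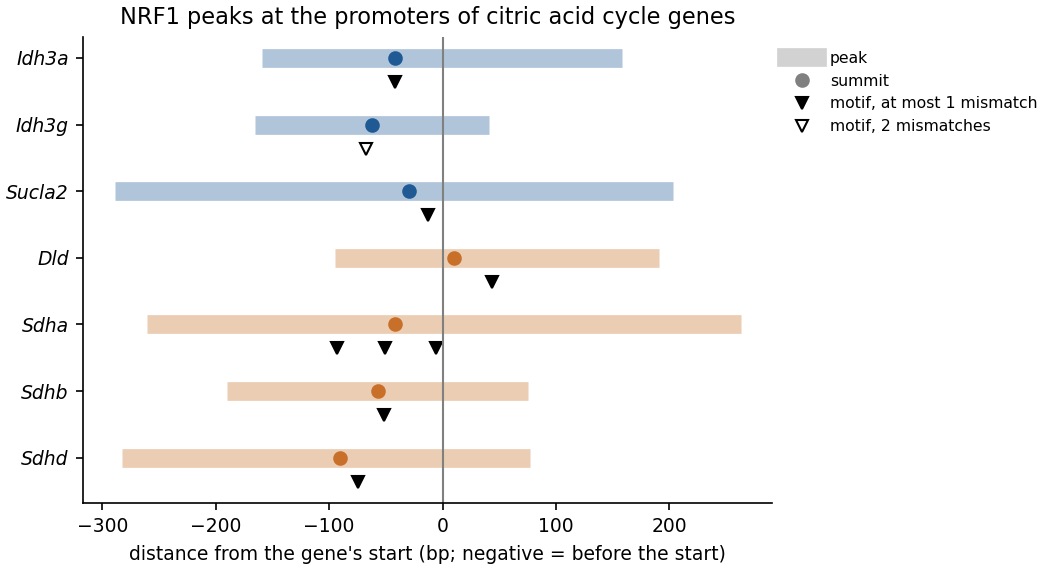
NRF1 peaks at the 7 citric acid cycle genes with a promoter peak, on an axis of distance in bp from the start of each gene (bars, peaks; circles, summits; triangles, motif matches, filled for at most 1 mismatch and open for 2). Blue marks the 3 listed enzymes and orange 4 further enzymes of the cycle. Every summit lies between 90 bp before and 10 bp after the start, and every peak covers it.

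The 3 peaks were of ordinary height. Over the 2607 promoter peaks fold enrichment had a median of 11.1, between a lower quartile of 7.90 and an upper one of 16.4, and the whole range was 3.01 to 49.9. The fold enrichments of Idh3a, Idh3g and Sucla2 ranked 1618, 1329 and 1265 from the top, and all 3 lay inside the quartiles. In −log10 q they stood at 20.4 to 26.3 beside a median of 25.3. Their widths spanned more of the range, from 207 bp, under the lower quartile of 228 bp, to 493 bp, over the upper quartile of 389 bp. Their summits, 30 to 62 bp before the start, lay between the quartiles of all promoter peaks, which were −116 and −7.00 bp relative to the start.

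**Figure D2:**
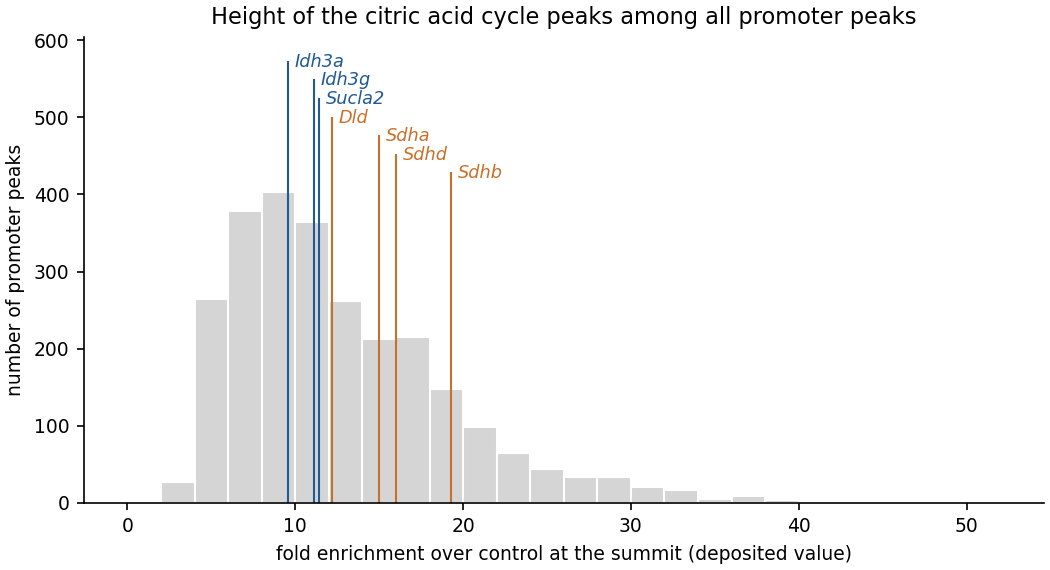
Histogram of the deposited fold enrichment of 2607 promoter peaks, with vertical lines at the citric acid cycle genes (blue, listed enzymes; orange, further enzymes; the height of a line has no meaning). Idh3a, Idh3g and Sucla2 lie between 9.55 and 11.4, around the median of 11.1, and Sdhb is the highest of the 7 at 19.3.

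Of the 6 enzymes without a promoter peak, none had a summit inside the gene. Their nearest summits lay at distances from 10184 bp for Idh3b to 1188562 bp for Fh1, and each was in the promoter of another gene. The order from near to far was Idh3b, Ogdh, Cs, Mdh2, Suclg1 and Fh1. For citrate synthase, encoded by Cs, which joins acetyl-CoA to oxaloacetate and opens the cycle, the nearest summit lay 105607 bp upstream at the promoter of Timeless, with a fold enrichment of 17.2. For Ogdh, the E1 subunit of the 2-oxoglutarate dehydrogenase complex, it lay 16691 bp upstream at the promoter of Tmed4, a tall peak with a fold enrichment of 25.0. For Fh1, the fumarase that adds water to fumarate, it lay upstream at the promoters of Cep170 and Sdccag8, with a fold enrichment of 11.3. For Mdh2, the mitochondrial malate dehydrogenase that regenerates oxaloacetate, it lay 156026 bp downstream at the promoter of Ywhag, with a fold enrichment of 9.70. Over the 18192 protein-coding genes without a promoter peak, the nearest summit was a median 186975 bp away, with quartiles of 58885 and 585252 bp. Cs and Mdh2 lay inside those quartiles, Idh3b and Ogdh were nearer than the lower one, and Suclg1 and Fh1 were farther than the upper one. Since the nearest peaks of Idh3b and Ogdh belong to other promoters, nearness to a summit was not read as occupancy of either gene.

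**Figure D3:**
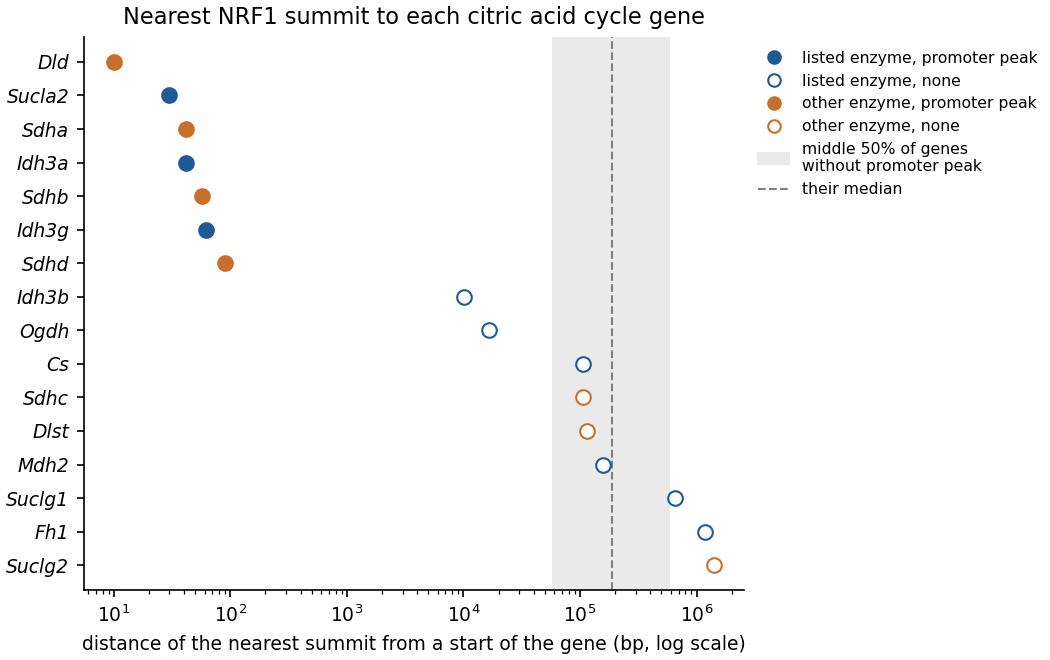
Distance in bp, on a log scale, from each of 16 citric acid cycle genes to its nearest NRF1 summit (filled, promoter peak; open, none; blue, listed enzymes; orange, further enzymes). The grey band and dashed line give the quartiles and the median of 186975 bp over protein-coding genes without a promoter peak. No gene lies between 90 bp and 10184 bp.

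The letters of the promoters were then set beside the peaks. All 9 enzymes had a CpG-rich promoter. In such a promoter the bases within 200 bp of a start had at least 50% GC and a CpG ratio of at least 0.6. The CpG ratio is the observed count over that from base composition. For a gene with several starts, GC content and CpG ratio were taken at the start with the highest CpG ratio. GC content ran from 52.6% at Suclg1 to 70.3% at Idh3a, and the CpG ratio from 0.741 at Suclg1 to 1.01 at Fh1. The peaks did not follow these values in order, since Idh3g had a CpG ratio of 0.745 with a peak and Fh1 the highest ratio without one. Of all protein-coding genes with a CpG-rich promoter, 2667 of 11541 or 23.1% had a promoter peak, against 1.49% of the other genes. All 9 enzymes fall in this background, which was added after seeing the data. The interval of their 3 of 9, from 12.1% to 64.6%, takes in this share and the 13.4% of all genes.

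Matches to GCGCATGCGC, on either strand and with at most 1 mismatch, lay in the promoters of 12.1% of all protein-coding genes. Of the genes with such a match 75.4% had a promoter peak, and of the genes without one 4.81% did. Among the 9 enzymes the promoters of Idh3a, Sucla2 and Ogdh held a match, and the first 2 of these had a peak. Idh3g was the enzyme that had a peak without such a match. At a summit, within 100 bp, 65.9% of all promoter peaks held a match with at most 1 mismatch and 10.9% held the full palindrome, as the Idh3a peak did. Allowing 2 mismatches, 91.0% of promoter peaks held a match, the Idh3g peak included.

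Ogdh and Cs had the closest matches among the enzymes without a promoter peak, and 30 bases around each are shown for comparison with the bound sites, with the match in capitals.
Ogdh, chr11:6292533-6292562, plus strand: taggtgttgtGCGCATGCGTaactcaactt
Cs, chr10:128337751-128337780, plus strand: cctgggctggGCGCCTGTGCcggtttgtct
The Ogdh match, GCGCATGCGT, differs from the palindrome at 1 base. It lay 10.5 bp before 1 of the 6 annotated starts of Ogdh, the one at position 6292558 of chromosome 11, which is downstream of the first start at 6291597. The promoters of 260 protein-coding genes held these same letters, and 213 of them or 81.9% had a promoter peak. Ogdh was thus among the 47 genes that had the letters and no peak in this list. The Cs match, GCGCCTGTGC, has 2 mismatches and lay 38.5 bp after the start. Its letters were found in 70 promoters, of which 38.6% had a peak. The promoters of Suclg1, Fh1 and Mdh2 had no match closer than 3 mismatches, and that of Idh3b none closer than 4.

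The letters at the bound enzymes can be read the same way. The full palindrome of Idh3a lay in 368 promoters, and 89.4% of those had a peak. GCGCCTGCGC, as at Sucla2, lay in 857 promoters with a share of 84.0%. GCGCGTGCGT, as at Idh3g, lay in 144 promoters with a share of 55.6%. These shares count a peak anywhere in the promoter and do not show that the letters themselves were bound.

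**Figure D4:**
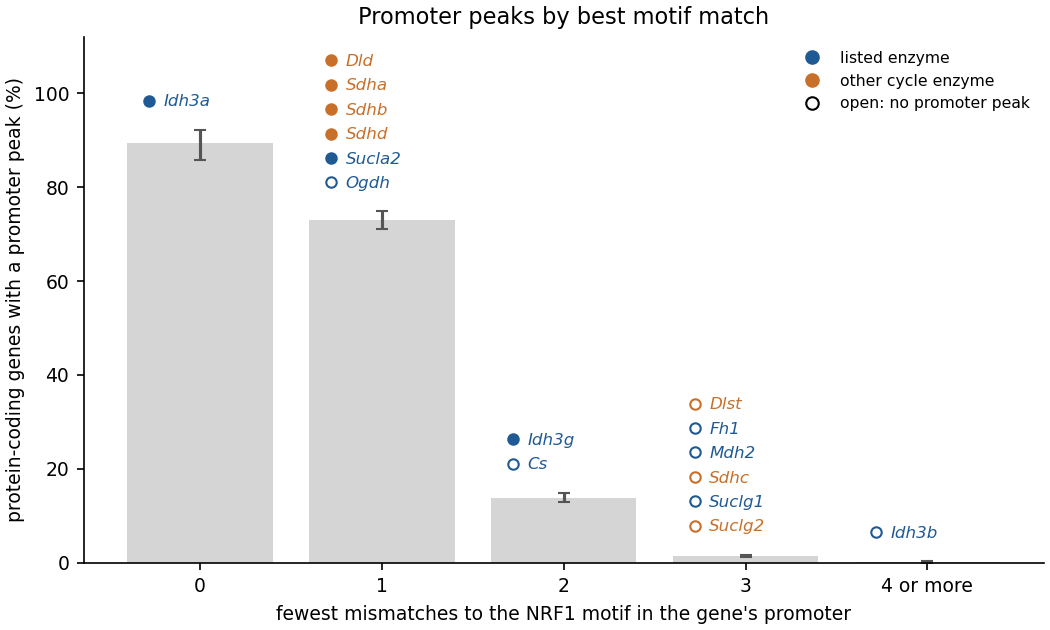
Share of protein-coding genes with a promoter peak in percent (bars, with 95% Wilson intervals) by the fewest mismatches to the NRF1 palindrome anywhere in their promoters. Gene names stand above the bar they belong to, at heights without meaning (blue, listed enzymes; orange, further enzymes; filled, promoter peak; open, none). The share falls from 89.4% with no mismatch through 73.0% with 1 and 13.9% with 2 to 1.44% with 3, and Ogdh is the 1 cycle gene with at most 1 mismatch that has no peak.

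The remaining mitochondrial enzymes of the cycle were taken as a list of 8 genes, and 4 of them had a promoter peak. Of the full cycle of 17 genes, all with CpG-rich promoters, 7 or 41.2% did. The Wilson intervals, 21.5% to 78.5% for the 8 genes and 21.6% to 64.0% for the 17, lay above the 13.4% of all protein-coding genes and took in the 23.1% of genes with a CpG-rich promoter, a background added after seeing the data. The lists are short and were chosen with results of these data known, so the shares are a description. Succinate dehydrogenase, which oxidises succinate and is also complex II of the respiratory chain, had peaks at 3 of its 4 subunit genes. Sdha, the flavoprotein, had a fold enrichment of 15.0, Sdhb, the iron-sulphur subunit, 19.3, and the membrane anchor Sdhd 16.0. Sdhc, the other membrane anchor, had none, and its nearest summit lay 105854 bp away. In the 2-oxoglutarate dehydrogenase complex the E3 subunit gene Dld, whose protein also serves the pyruvate dehydrogenase complex, had a peak with a fold enrichment of 12.2. The genes of the other two subunits, Ogdh and Dlst, had none.

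Sites at Sdhb, Sdha, Sdhd and Dld are shown because each held a 1-mismatch match near its summit, with the match in capitals. At Sdhd and Dld the match lies inside a transcript, and only 30 bases are given.
Sdhb, chr4:140961154-140961270, plus strand: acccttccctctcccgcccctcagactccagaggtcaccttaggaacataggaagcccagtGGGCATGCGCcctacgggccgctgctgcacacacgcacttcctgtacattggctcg
Sdha, chr13:74350241-74350316, minus strand: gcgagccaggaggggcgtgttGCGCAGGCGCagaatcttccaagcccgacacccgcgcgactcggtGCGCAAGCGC
Sdhd, chr9:50603909-50603938, minus strand: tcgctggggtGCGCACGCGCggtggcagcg
Dld, chr12:31351413-31351442, minus strand: cgtatatgttGCGCAGGCGCagggtgggga
Sdhb had GGGCATGCGC centred 5.5 bp after the summit. The Sdha peak held 3 matches, 2 of them in the stretch shown, and it is shared with Ccdc127, whose start lies 77 bp away on the other strand. Sdhd had GCGCACGCGC 15.5 bp after the summit and shares its peak with Timm8b, which encodes a small chaperone of mitochondrial import and starts 52 bp away. Dld had GCGCAGGCGC, the same letters as at Sucla2 read on the opposite strand. With Idh3g, 3 of the 7 cycle genes with a promoter peak shared it with another protein-coding gene, as did 602 of all 2808 protein-coding genes with a promoter peak, or 21.4%. With 7 genes no difference was read from these shares. The median fold enrichment of the 4 peaks was 15.5, with a range of 12.2 to 19.3. This range does not overlap that of 9.55 to 11.4 of Idh3a, Idh3g and Sucla2. Of all promoter peaks, 55.9% were lower than the Dld peak and 85.3% lower than the Sdhb peak. The same share ran from 37.7% for Idh3a to 51.4% for Sucla2. The difference between the 2 groups, which were set by the lists, concerns 7 single values without replicates and was not tested.

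Genes of neighbouring pathways, among them enzymes that feed the cycle, were examined in the same way. Of 13 genes for the entry of pyruvate, 3 or 23.1% had a promoter peak. Pdha1, the E1 alpha subunit of pyruvate dehydrogenase, had a low one with a fold enrichment of 4.81 and a −log10 q of 3.14. Pdhx, the E3-binding protein of that complex, had a fold enrichment of 8.03 at a peak shared with Apip. Pdk1, a kinase that switches the complex off, had a fold enrichment of 6.49. All 3 were lower than every peak of the cycle itself. Of 11 counterparts and refilling enzymes, which include the cytosolic forms and the NADP-dependent Idh1 and Idh2, Glud1 and Me2 had peaks. Glud1, the glutamate dehydrogenase that yields 2-oxoglutarate, had a fold enrichment of 24.0 at a peak shared with Shld2, and Me2, a mitochondrial malic enzyme, had 7.74. Neither Idh1 nor Idh2 had a promoter peak, and nor did Idh3b, in contrast to Idh3a and Idh3g. Of the 4 paralogues Csl, Ogdhl, Dhtkd1 and Mdh1b, only Mdh1b had one, at a fold enrichment of 6.75 and shared with Fastkd2. Of the 3 genes for lipoate attachment, Lias, Lipt1 and Lipt2, none did, though Lipt2 had a summit 411 bp after its start, in its coding exon, with a fold enrichment of 13.4. Over these 31 neighbouring genes the share was 19.4%, between the 13.4% of all protein-coding genes and the 23.1% of those with a CpG-rich promoter.

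**Figure D5:**
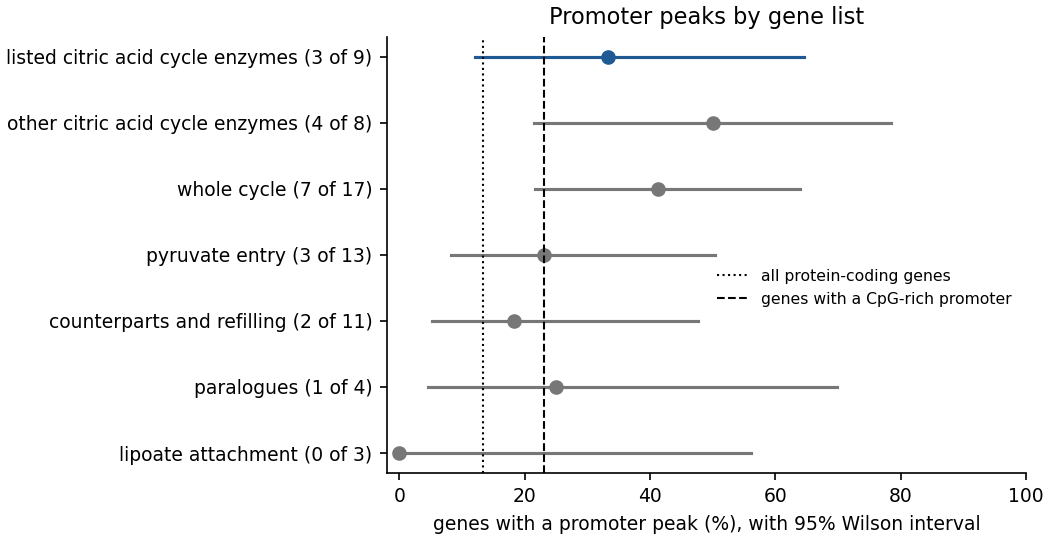
Share of genes with a promoter peak in percent for each list, with 95% Wilson intervals for counting error (blue, the 9 listed enzymes). The dotted line marks 13.4% of all protein-coding genes and the dashed line 23.1% of genes with a CpG-rich promoter. The intervals of the other citric acid cycle enzymes and of the whole cycle, which includes them, lie above the dotted line. Those of the remaining lists take it in, and the interval of every list takes in the dashed line. The lists were chosen with earlier results of these data known, so the intervals are a description and no list was tested.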

How the data were processed

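ChIP-seq of NRF1 was analysed from 1 deposited list of peaks. Per its methods, the authors aligned single-end reads to mm10 by Bowtie, kept unique reads, removed blacklisted regions (the blacklist named is of a human build) and called peaks with MACS2 against input DNA. The reporting summary names the library of replicate 2 as that input, whereas its label names the NRF1 antibody. It also names the broad option, whereas the deposited layout is that of narrow peaks. The authors gave each peak a fold enrichment, a ratio to the MACS2 control, and −log10 p- and q-values. Summits were deposited as a distance from the peak start.

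Starts were 31603 of 45756 known RefSeq transcripts of GRCm38. Summit positions, motif matches (10 bases, both strands) and CpG content were computed with Python 3.11.15, numpy 2.4.6 and pandas 2.3.3, and the code was tested on simulated data. Wilson intervals came from scipy 1.17.1. Predicted transcripts were left out. All 48 genes of the 6 lists matched a symbol. A gene counted among the further cycle enzymes is not reported by itself here. All 9 enzymes were named, and of the other lists every gene with a promoter peak. Bases were printed around bound summits, except at Sdhd and Dld, where they were printed around the motif match and leave out the summit. In enzymes without a peak, bases were printed around the best motif matches of up to 2 mismatches. Members and lists were chosen with earlier results of these data known. The CpG-rich background was added after seeing the data. Duplicate removal, unique mapping and control depth all bear on fold enrichment.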

Additional observations from a re-analysis of the deposited data

How the results depend on the processing

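The same 3 enzymes, Idh3a, Idh3g and Sucla2, had a promoter peak with a promoter of 500 bp on both sides of a start, with one of 2000 bp before to 500 bp after, with any overlap of at least 1 bp, with predicted transcripts added, and with limits of 0.01 or 1e-05 on q or 5 on fold enrichment. Their median fold enrichment stayed at 11.1. Among the further cycle enzymes the count was 4 under each of these. The share of all protein-coding genes ran from 12.8% to 14.7%. The count over the 31 neighbouring genes ran from 5 to 7, because Lipt2 entered with the other windows or any overlap and Pdha1 left at the limits of 1e-05 on q or 5 on fold enrichment. The motif was found at 2 of the 3 peaks with at most 1 mismatch, at 1 with no mismatch and at 3 with at most 2 mismatches. The background of CpG-rich promoters was chosen after seeing the data.

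No paired analysis was possible because the labels give 1 group and only 1 list of peaks was analysed, and for the same reason no library was left out. Read depth is unknown, and a gene without a promoter peak is one where none was detected at this depth.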
